A study of Mus musculus with 10 samples.

Results

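The genes of the mouse major histocompatibility complex (MHC) and of antigen processing were measured by RNA sequencing of 10 prostate orthograft tumours. They comprise 48 of the 47069 gene IDs counted in each tumour: the protein-coding genes whose symbol begins with H2-, and B2m, Tap1, Tap2, Tapbp, Tapbpl, Nlrc5, Ciita, Cd74, Psmb8, Psmb9, Psmb10, Psme1, Psme2 and Erap1. The rule goes by symbol alone. By role, 26 are class I genes, 11 are class II genes, 10 belong to processing and peptide loading, and 1, H2-Ke6, is named for its place in the MHC but encodes a steroid dehydrogenase and was kept apart. The counts of 38 members were high enough for testing. The other 10, all class I, were H2-T3 with 67 counts over all tumours, H2-M5 with 29, H2-M10.1 with 13, and H2-M1, H2-M10.2 to H2-M10.6 and H2-M11 with 6 or fewer each.

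Each tumour grew from cells of a mouse prostate cancer line injected into an anterior prostate lobe of a male CD-1 Nude mouse. CP2 (4 tumours) and CP1 (3 tumours) were established from prostate tumours of donors aged 8 and 6 months that carried Ctnnb1pc(ex3)Δ/+, the loss of an exon that stabilises beta-catenin. P1 (3 tumours) came from a donor aged 14 months whose label lists no such allele. The donors' genotypes differ in more than this allele, every line stands for 1 donor tumour, and line, genotype and donor age cannot be told apart. The title of CP2 replicate 1 gives CP1, but its labels for tissue and source give CP2, where it was kept. No label ties a library to its own animal, so the spread behind the p-values may be partly technical. Libraries held 18800912 to 20638085 counts in CP2, 25081535 to 30546426 in CP1 and 28050484 to 37180721 in P1. Summed epithelial marker levels were 220 to 434 CPM (counts scaled to library size) in CP2, 739 to 1479 in CP1 and 9254 to 18653 in P1, so these sums were lower in both CP lines than in P1. The marker Krt19 still had 320 to 600 CPM in CP1. Urothelial genes summed to 53.1 to 1245 CPM in CP1 with the highest sums in replicates 2 and 3, and seminal vesicle genes to 17292 to 152699 CPM in P1 with the highest in replicates 1 and 2. Their part in the results below was not tested, and the members' calls that were lost without those tumours are given.

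MHC class I molecules pair a heavy chain with beta-2-microglobulin and show peptides from inside the cell to CD8 T cells and natural killer (NK) cells. The peptides are cut by the proteasome, whose immunoproteasome subunits Psmb8, Psmb9 and Psmb10 replace the constitutive ones, pumped into the endoplasmic reticulum by Tap1 and Tap2, trimmed by Erap1 and loaded with the help of tapasin. Class II molecules, found mainly on dendritic cells, macrophages and B cells, show peptides from endosomes to CD4 T cells and need the invariant chain Cd74 and the H2-DM exchange factor. Nlrc5 and Ciita switch on class I and class II genes through promoter-bound RFX, CREB and NF-Y factors, and interferon-gamma is the classical inducer of both. Nude mice lack a functional thymus and most T cells but keep macrophages, dendritic cells, B cells and NK cells, so in these bulk tumours the RNA comes from grafted and host cells together, and fewer cells of a type cannot be told apart from less RNA per cell.

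Promoter stretches of the main class I heavy chains, of some class II genes and close relatives described below, and of Psmb9 and Tap1 are shown because class I and class II genes share known promoter elements. They come from RefSeq (GRCm38.p6), run 5′ to 3′ in the direction of the gene and end at the base before its RefSeq start. RefSeq windows from 250 bases before to 50 bases after the start were available for 40 of the 48 members. The class I stretches come first. Capitals mark enhancer A, the longer run, which NF-kappaB binds, and a pair of shorter runs, TGANGC and ATTGG, whose first bases lie 20 to 30 apart and which correspond to the X2 and Y boxes bound by CREB and NF-Y.
H2-K1, chr17:34000348-34000547 (- strand): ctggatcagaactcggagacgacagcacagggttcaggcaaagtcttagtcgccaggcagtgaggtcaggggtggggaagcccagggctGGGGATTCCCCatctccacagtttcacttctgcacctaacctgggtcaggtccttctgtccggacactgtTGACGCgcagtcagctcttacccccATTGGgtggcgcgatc
H2-D1, chr17:35262894-35263093 (+ strand): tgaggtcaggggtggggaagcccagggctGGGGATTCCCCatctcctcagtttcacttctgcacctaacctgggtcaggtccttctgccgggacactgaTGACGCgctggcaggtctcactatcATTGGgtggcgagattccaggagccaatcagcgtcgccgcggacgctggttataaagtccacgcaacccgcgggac
H2-Q6, chr17:35424650-35424849 (+ strand): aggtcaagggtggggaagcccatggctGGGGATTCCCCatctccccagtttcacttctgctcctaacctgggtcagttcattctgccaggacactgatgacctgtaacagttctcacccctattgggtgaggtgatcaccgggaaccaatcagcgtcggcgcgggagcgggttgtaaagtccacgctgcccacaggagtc
H2-Q7, chr17:35438955-35439154 (+ strand): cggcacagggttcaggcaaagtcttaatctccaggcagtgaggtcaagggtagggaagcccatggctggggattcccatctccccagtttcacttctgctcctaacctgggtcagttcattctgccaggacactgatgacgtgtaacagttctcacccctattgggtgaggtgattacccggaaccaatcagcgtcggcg
H2-K1 and H2-D1 held both elements, H2-Q6 held enhancer A alone, and the H2-Q7 stretch held neither in these letters. The class II stretches use the same capitals for the pair.
H2-Eb1, chr17:34305717-34305866 (+ strand): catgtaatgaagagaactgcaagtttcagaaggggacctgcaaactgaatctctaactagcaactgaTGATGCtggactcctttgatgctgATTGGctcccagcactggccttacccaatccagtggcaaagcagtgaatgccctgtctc
H2-Eb2, chr17:34325525-34325674 (+ strand): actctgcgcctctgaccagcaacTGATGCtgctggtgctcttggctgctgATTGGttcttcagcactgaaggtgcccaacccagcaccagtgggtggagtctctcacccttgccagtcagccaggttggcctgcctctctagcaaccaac
H2-DMb1, chr17:34153041-34153190 (+ strand): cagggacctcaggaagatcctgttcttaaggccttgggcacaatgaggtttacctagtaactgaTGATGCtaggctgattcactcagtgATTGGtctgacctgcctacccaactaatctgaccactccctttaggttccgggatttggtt
H2-Aa, chr17:34287824-34287973 (- strand): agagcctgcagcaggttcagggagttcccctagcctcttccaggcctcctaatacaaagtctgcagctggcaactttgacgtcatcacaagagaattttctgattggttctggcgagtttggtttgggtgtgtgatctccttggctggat
In these letters the pair was found in all of these except H2-Aa, which has TGACGT before its ATTGG. The last stretch lies between the starts of Psmb9 and Tap1, which are transcribed away from each other, and is printed on the strand of Tap1 with a CCAAT box in capitals.
Psmb9-Tap1, chr17:34187331-34187555 (+ strand): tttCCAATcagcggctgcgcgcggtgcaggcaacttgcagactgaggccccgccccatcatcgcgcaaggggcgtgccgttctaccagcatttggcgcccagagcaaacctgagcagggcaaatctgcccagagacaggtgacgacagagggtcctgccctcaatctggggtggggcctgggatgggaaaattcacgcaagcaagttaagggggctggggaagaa

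The main class I heavy chains, H2-K1 and H2-D1, were higher in CP2 and lower in CP1 than in P1. The main class II genes were lower in both CP lines than in P1. Genes were called with edgeR's quasi-likelihood test at a Benjamini-Hochberg adjusted p below 0.05 over 17644 genes. Every adjusted p below comes from this test unless DESeq2 is named. Fits without some tumours or without a filter used the same test over their own set of genes. In CP2 versus CP1, 16 of the 38 tested members were higher and 0 lower, where 21.3% of all tested genes were higher and 21.9% lower. At an unadjusted p below 0.05, 2 members were lower, and DESeq2 called 1, Psme2. The 16 were 11 of 16 class I, 2 of 11 class II and 3 of 10 processing genes, with median log2 fold changes of 1.24, -0.48 and 0.16 against -0.01 over all tested genes. In CP1 versus P1, 3 members were higher and 14 lower, where 22.4% of all genes were higher and 22.4% lower. The lower ones were 4 class I, 7 class II and 3 processing genes, and the medians were -0.48, -1.64 and -0.35 against -0.01. In CP2 versus P1, 9 members were higher and 10 lower, where 28.2% of all genes were higher and 28.4% lower. Of class I, 8 were higher and 1 lower, of class II 1 was higher and 8 lower, and of processing 1 was lower, with medians of 0.69, -1.48 and 0.15 against 0.00. The comparisons share tumours and are therefore not independent. Without P1 replicates 1 and 2 the lower calls were 7 for CP1 and 5 for CP2 against P1, and without CP1 replicates 2 and 3 there were 7 lower and 1 higher in CP1 versus P1 and 9 higher and 5 lower in CP2 versus CP1. Without CP1 replicate 3 alone, 6 members were lower in CP2 than in CP1.

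**Figure D1:**
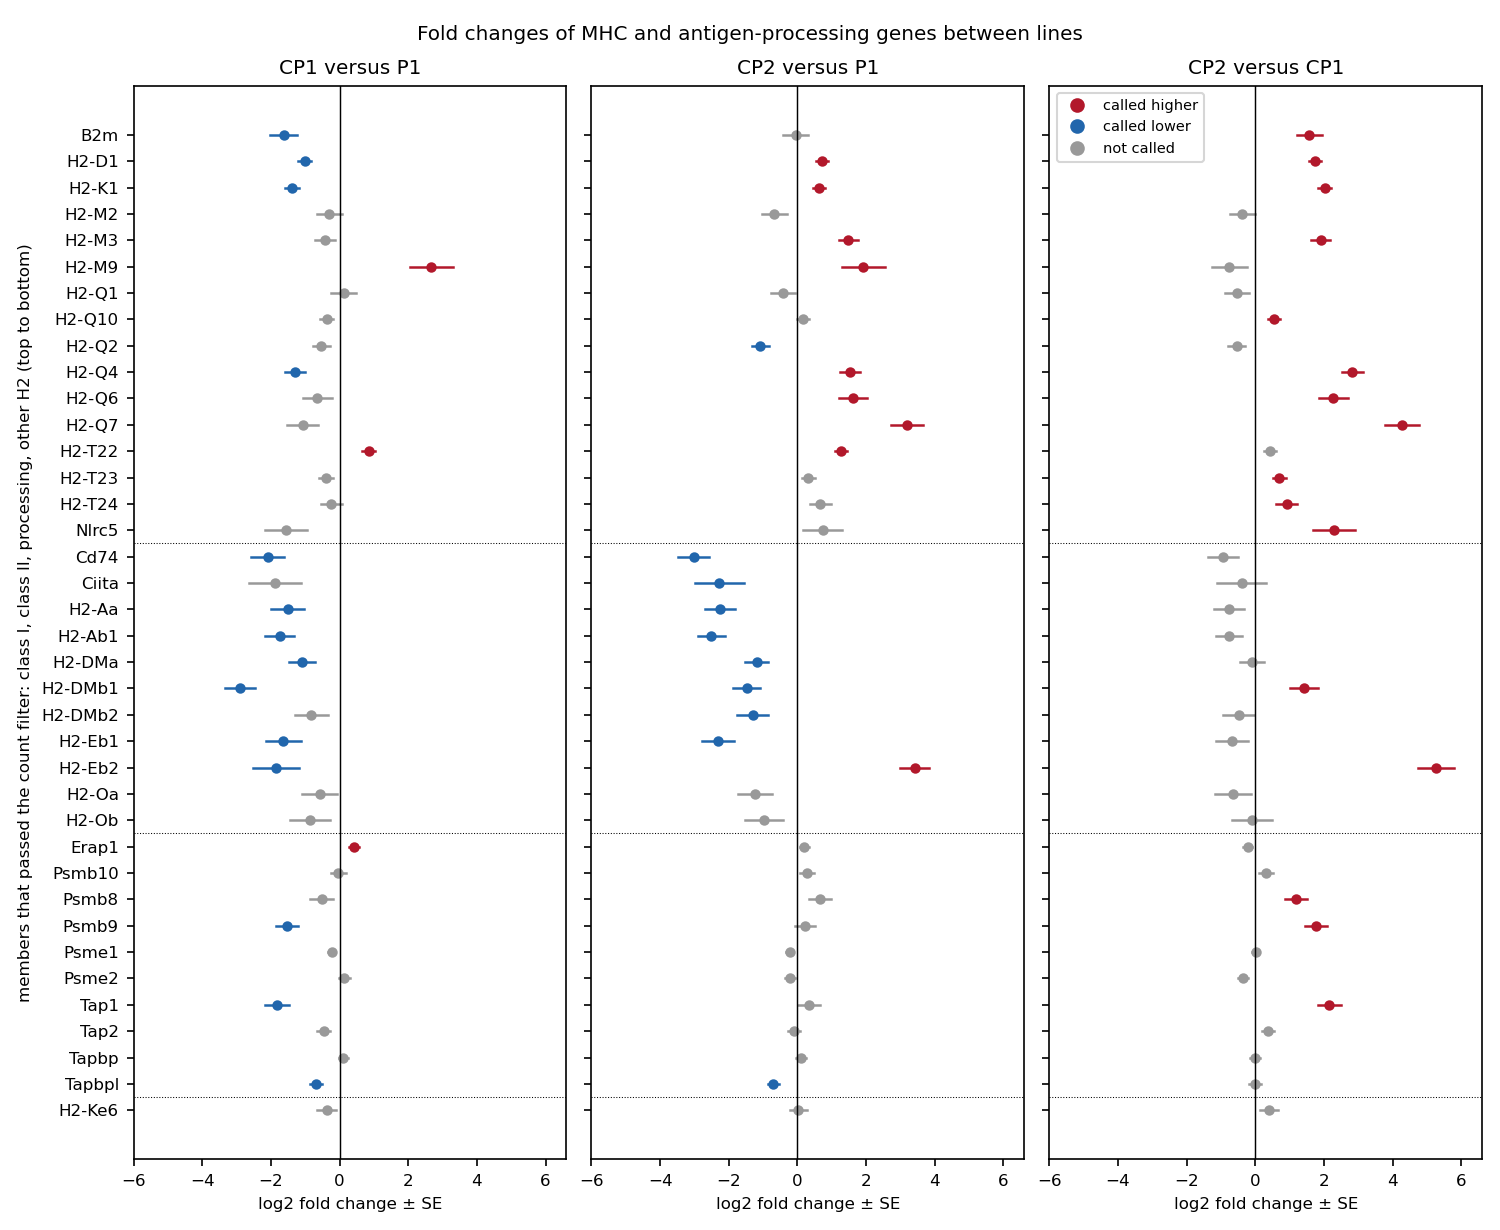
Log2 fold changes with their standard errors (bars) for the 38 members that passed the count filter, in CP1 versus P1, CP2 versus P1 and CP2 versus CP1, from top to bottom class I, class II, processing and H2-Ke6. Red marks higher calls, blue lower calls and grey no call: 11 of 16 class I genes are red in CP2 versus CP1, and 8 of 11 class II genes are blue in CP2 versus P1.

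H2-K1 (ENSMUSG00000061232, GRCm38 chromosome 17: 33996017 to 34000347), a classical heavy chain that presents peptides to CD8 T cells, had 559, 920, 816 and 844 CPM in the 4 CP2 tumours, 210, 208 and 164 CPM in the 3 CP1 tumours, and 441, 606 and 482 CPM in the 3 P1 tumours. All CP1 tumours lay below all others, while CP2 replicate 1 lay within the range of P1. H2-K1 averaged 785 ± 157 CPM in CP2, 194 ± 25.9 CPM in CP1 and 510 ± 85.6 CPM in P1 (SD, n = 4, 3 and 3). The log2 fold change was 2.02 ± 0.19 (SE, adjusted p = 4.44e-05) in CP2 versus CP1, -1.39 ± 0.20 (adjusted p = 0.000305) in CP1 versus P1 and 0.62 ± 0.18 (adjusted p = 0.0151) in CP2 versus P1. The rise in CP2 over P1 was 0.51 and not called without P1 replicate 1 (adjusted p = 0.0573), and 0.67 and not called without P1 replicates 1 and 2 (adjusted p = 0.0679).

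H2-D1 (ENSMUSG00000073411, chromosome 17: 35262730 to 35267499), the other main classical heavy chain, had 774, 1030, 943 and 989 CPM in CP2, 293, 335 and 217 CPM in CP1, and 469, 631 and 612 CPM in P1. The 3 lines did not overlap. Its log2 fold change was 1.73 ± 0.18 in CP2 versus CP1 (adjusted p = 6.70e-05), -1.02 ± 0.18 in CP1 versus P1 (adjusted p = 0.0013) and 0.71 ± 0.17 in CP2 versus P1 (adjusted p = 0.00552). Without P1 replicates 1 and 2 the last was 0.58 and not called (adjusted p = 0.077). H2-K1 and H2-D1 together made up 77.0% to 78.7% of the summed heavy chain CPM in CP2, 67.7% to 73.9% in CP1 and 81.2% to 83.4% in P1. This sum also held H2-Ke6, which is no heavy chain, at 0.565 to 1.03 CPM per tumour. The ratio of H2-D1 to H2-K1 in CPM per kilobase of exon was 1.27 to 1.58 in CP2, 1.51 to 1.84 in CP1 and 1.19 to 1.45 in P1.

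B2m (ENSMUSG00000060802, chromosome 2: 122147686 to 122153083) encodes beta-2-microglobulin, the light chain that all these heavy chains need at the cell surface. Its level was 1005, 1525, 1392 and 1558 CPM in CP2, 553, 494 and 333 CPM in CP1, and 2450, 1025 and 800 CPM in P1. CP1 lay below every other tumour, and P1 replicate 1 stood far above the other P1 tumours. B2m was higher in CP2 than in CP1 by 1.57 ± 0.37 on the log2 scale (adjusted p = 0.00727) and lower in CP1 than in P1, at -1.63 ± 0.39 (adjusted p = 0.00665). Without P1 replicate 1 the difference of CP1 from P1 was -1.01 (adjusted p = 0.00847), and without P1 replicates 1 and 2 it was -0.83 and not called (adjusted p = 0.0606). Without CP1 replicates 2 and 3 neither B2m call held, with 1.31 in CP2 versus CP1 (adjusted p = 0.153) and -1.36 in CP1 versus P1 (adjusted p = 0.128). CP2 versus P1 gave -0.06 ± 0.35 (adjusted p = 0.902). Per kilobase, B2m stood at 2.38 to 2.70 times the sum of H2-K1 and H2-D1 in CP2 and at 2.76 to 3.48 times in CP1. In P1 the ratio was 8.58 in replicate 1, which also held the highest seminal vesicle sum, and 2.64 and 2.32 in replicates 2 and 3.

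**Figure D2:**
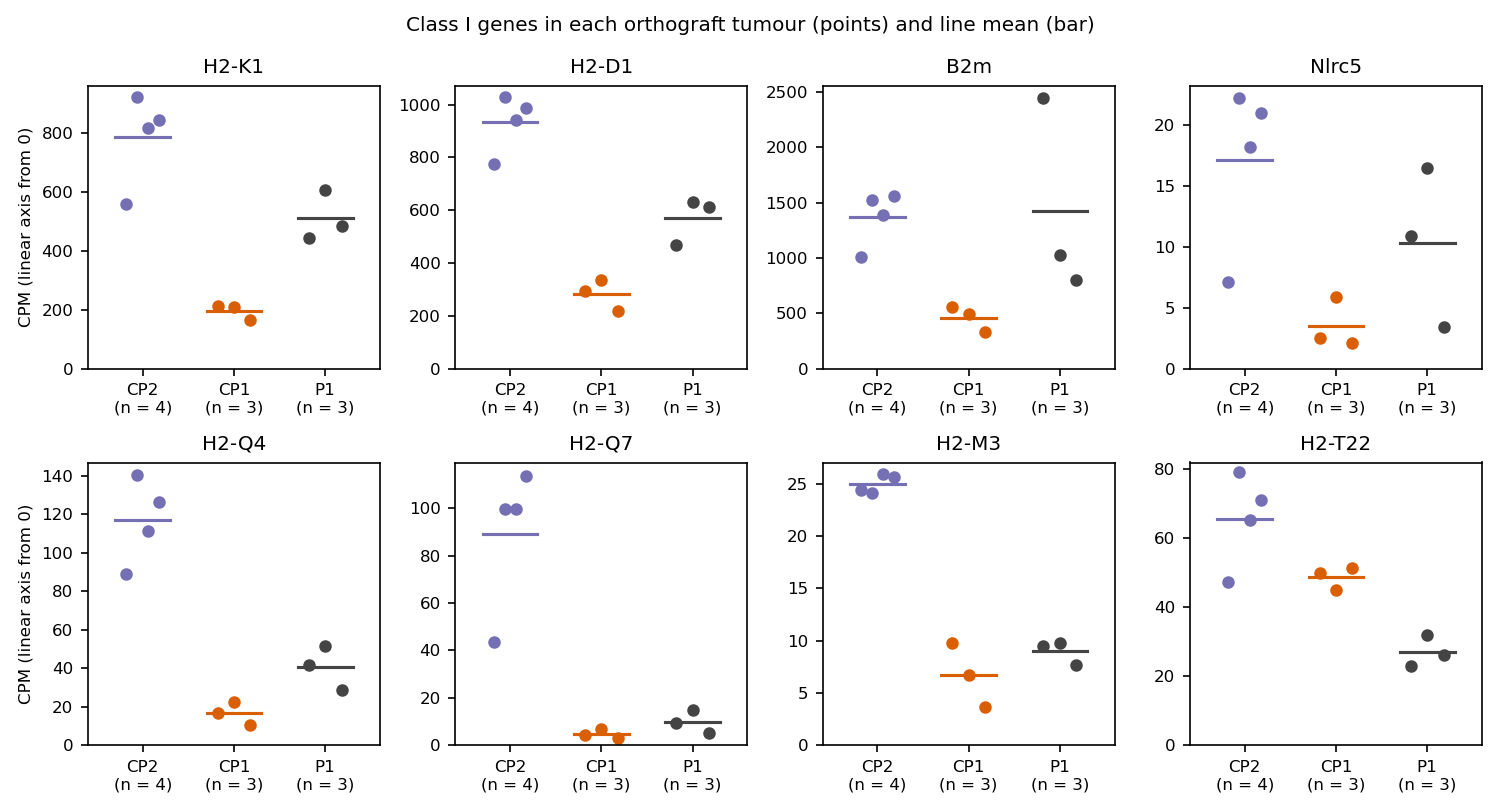
CPM of 8 class I genes on linear axes from 0, with a point for each tumour and a bar for the mean of each line (CP2 n = 4, CP1 n = 3, P1 n = 3). The 3 CP1 tumours lie below all others for H2-K1, H2-D1, B2m and H2-Q4, while H2-T22 is lowest in P1.

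Among the non-classical heavy chains, H2-Q7, H2-Q4 and H2-Q6 differed most between CP2 and CP1. H2-Q7 (ENSMUSG00000060550, chromosome 17: 35439155 to 35443773), which encodes a Qa-2 antigen, had 43.4, 99.9, 99.9 and 114 CPM in CP2, 4.06, 6.72 and 3.08 CPM in CP1, and 9.46, 14.8 and 5.04 CPM in P1. Every CP2 tumour lay above every other tumour, and CP1 and P1 overlapped. The log2 fold change was 4.26 ± 0.49 in CP2 versus CP1 (adjusted p = 0.000123) and 3.19 ± 0.46 in CP2 versus P1 (adjusted p = 0.000237), while CP1 versus P1 gave -1.08 ± 0.46 and no call (adjusted p = 0.0829). That last comparison was called without P1 replicate 3 (-1.40, adjusted p = 0.0298), without CP2 replicate 1 (adjusted p = 0.0493) and by DESeq2 (-1.09, adjusted p = 0.0321).

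H2-Q4 had 89.1, 140, 111 and 127 CPM in CP2, 16.6, 22.3 and 10.5 CPM in CP1, and 41.4, 51.4 and 28.4 CPM in P1. Its 3 lines did not overlap, in the same order as H2-D1. H2-Q4 differed by 2.82 ± 0.30 in CP2 versus CP1 (adjusted p = 7.25e-05), -1.29 ± 0.29 in CP1 versus P1 (adjusted p = 0.00487) and 1.53 ± 0.28 in CP2 versus P1 (adjusted p = 0.00103). Without P1 replicates 1 and 2, CP1 versus P1 gave -0.82 and no call (adjusted p = 0.116). H2-Q6 had 19.3 to 43.9 CPM in CP2, 4.05 to 11 CPM in CP1 and 6.86 to 14.8 CPM in P1, and was called in CP2 versus CP1 (2.27 ± 0.41, adjusted p = 0.00179) and CP2 versus P1 (1.62 ± 0.40, adjusted p = 0.00618). All H2-Q heavy chains together took 9.50% to 12.5% of the same sum, H2-Ke6 included, in CP2, 4.64% to 7.16% in CP1 and 4.05% to 6.86% in P1. H2-Q2, at 1.96 to 2.14 CPM in CP2, 2.07 to 3.57 CPM in CP1 and 3.54 to 5.55 CPM in P1, was the class I gene that was lower in CP2 than in P1 (-1.08 ± 0.24, adjusted p = 0.00367; -0.81 and not called without P1 replicates 1 and 2, adjusted p = 0.0635).

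Near-identical copies limit these values. In annotated transcripts, 26.4% of the 50-base windows of H2-Q7, 32.0% of H2-Q6, 21.8% of H2-Q4, 12.8% of H2-D1 and 9.63% of H2-K1 occur letter for letter in another gene, while B2m has none. Counting could split or drop reads from such windows. The read length and the MHC haplotypes of the lines and of the outbred host are not given in the sources used here, and reads from alleles unlike those of C57BL/6J, the strain of the reference genome, could be lost or counted at a neighbouring gene. Their part in the differences was not tested.

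H2-M3, which presents formylated peptides such as those of bacteria and mitochondria, varied little within CP2. It had 24.4, 24.1, 25.9 and 25.6 CPM in CP2, 9.79, 6.66 and 3.61 CPM in CP1, and 9.52, 9.76 and 7.63 CPM in P1. CP2 lay above both other lines, which overlapped, with 1.90 ± 0.28 in CP2 versus CP1 (adjusted p = 0.00051) and 1.48 ± 0.27 in CP2 versus P1 (adjusted p = 0.00113). CP1 versus P1 gave -0.42 (adjusted p = 0.257) and was called without CP1 replicate 1 (-0.81, adjusted p = 0.0212).

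H2-T22, a ligand of some gamma-delta T cell receptors, had another order. It stood at 47.1, 79.0, 65.1 and 71.0 CPM in CP2, 49.8, 44.8 and 51.4 CPM in CP1, and 22.9, 32.0 and 26.2 CPM in P1. Both CP lines lay above P1, by 1.28 ± 0.18 in CP2 (adjusted p = 0.000191) and 0.85 ± 0.18 in CP1 (adjusted p = 0.00404). CP2 and CP1 overlapped (0.43 ± 0.17, adjusted p = 0.0686), a difference that was called without CP2 replicate 1 (0.56, adjusted p = 0.0117). In H2-T22, 34.5% of the windows occur elsewhere, mostly in H2-T10. H2-T23, which encodes Qa-1, the ligand of the NK receptor CD94/NKG2A, had 121 to 172 CPM in CP2, 80.9 to 94.1 CPM in CP1 and 79.0 to 141 CPM in P1. It was higher in CP2 than in CP1 by 0.70 ± 0.19 (adjusted p = 0.0142; 0.64 and not called without CP1 replicate 2, adjusted p = 0.0539), and CP1 versus P1, -0.39 with no call (adjusted p = 0.144), was called without P1 replicate 1 (-0.61, adjusted p = 0.00791).

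The remaining called class I genes were low or differed little. H2-T24 and H2-Q10, with CP2 means of 9.23 and 7.43 CPM and CP1 means of 4.92 and 5.09 CPM, were higher in CP2 than in CP1 by 0.91 ± 0.30 (adjusted p = 0.0334) and 0.54 ± 0.18 (adjusted p = 0.0329). Each call was lost without any 1 of 5 tumours (adjusted p up to 0.106 and 0.116). H2-M9 stayed below 1 CPM throughout, at 0.430 ± 0.259 CPM in CP2, 0.719 ± 0.141 CPM in CP1 and 0.109 ± 0.0768 CPM in P1. Its calls were 2.68 ± 0.61 in CP1 versus P1 (adjusted p = 0.00537; 3.30 without P1 replicate 1) and 1.92 ± 0.62 in CP2 versus P1 (adjusted p = 0.0237; 2.54 without P1 replicate 1), the second of which was lost without any 1 of 4 tumours (1.46 to 1.92, adjusted p = 0.0603 to 0.0824). H2-M2 and H2-Q1 had no call.

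Nlrc5 (ENSMUSG00000074151, chromosome 8: 94434356 to 94527272), the transactivator of class I genes, had 7.09, 22.2, 18.2 and 20.9 CPM in CP2, 2.47, 5.88 and 2.07 CPM in CP1, and 10.9, 16.5 and 3.43 CPM in P1. CP2 lay above CP1, and P1 overlapped both. CP2 exceeded CP1 by 2.29 ± 0.61 (adjusted p = 0.0125; 2.91 without CP1 replicate 2, adjusted p = 0.0106), and this was 2.79 and not called without CP1 replicates 2 and 3 (adjusted p = 0.0727). CP1 versus P1 gave -1.56 ± 0.62 (adjusted p = 0.0635), a fall that was called without P1 replicate 3 (-1.98, adjusted p = 0.0164), without CP1 replicate 2 (-2.17, adjusted p = 0.0304), without CP2 replicate 1 (adjusted p = 0.0486) and by DESeq2 (adjusted p = 0.0179). CP2 versus P1 gave 0.73 ± 0.56 (adjusted p = 0.289), and 2.29 with a call without P1 replicates 1 and 2 (adjusted p = 0.0494).

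In the processing group, Tap1 and the immunoproteasome subunit Psmb9, whose starts face each other across the stretch printed above, were lower in CP1 than in both other lines. Tap1 (ENSMUSG00000037321, chromosome 17: 34187553 to 34197225), a subunit of the peptide pump, had 60.5, 96.8, 94.7 and 91.4 CPM in CP2, 16.1, 26.1 and 15.4 CPM in CP1, and 56.4, 105 and 41.6 CPM in P1. CP1 lay below every other tumour, and CP2 and P1 overlapped. The log2 fold change was 2.16 ± 0.34 in CP2 versus CP1 (adjusted p = 0.000763), -1.82 ± 0.35 in CP1 versus P1 (adjusted p = 0.00188) and 0.34 ± 0.31 in CP2 versus P1 (adjusted p = 0.377). The last was 0.79 and called without P1 replicate 2 (adjusted p = 0.0344). Tap2, the partner subunit, had 44.3 to 62.8 CPM in CP2, 32.4 to 50 CPM in CP1 and 50.7 to 69.5 CPM in P1, with no call in any comparison, although CP1 versus P1 (-0.46, adjusted p = 0.0718) was called without CP1 replicate 2 (-0.61, adjusted p = 0.0343) and by DESeq2 (adjusted p = 0.0444). Per kilobase, Tap1 stood at 0.944 to 1.19 times Tap2 in CP2, 0.263 to 0.360 times in CP1 and 0.567 to 1.05 times in P1. The ratio in CP1 did not overlap with that in either other line.

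Psmb9 (chromosome 17: 34181987 to 34187764) had 24.7, 36.1, 40.5 and 38.9 CPM in CP2, 12.9, 11.5 and 6.64 CPM in CP1, and 24.6, 43.9 and 21.4 CPM in P1. As for Tap1, the 3 CP1 tumours were the lowest and CP2 and P1 overlapped. Psmb9 differed by 1.76 ± 0.31 in CP2 versus CP1 (adjusted p = 0.00157) and -1.53 ± 0.33 in CP1 versus P1 (adjusted p = 0.00345; -1.21 and not called without CP1 replicates 2 and 3, adjusted p = 0.0721). Psmb8 had 67.6, 103, 106 and 102 CPM in CP2, 52.8, 47.7 and 24.5 CPM in CP1, and 50.9, 89.4 and 39.1 CPM in P1. It was called in CP2 versus CP1 alone (1.18 ± 0.33, adjusted p = 0.0165), which was 0.91 and not called without CP1 replicate 3 (adjusted p = 0.0522). In CP2 versus P1 it was called without P1 replicate 2 (1.05, adjusted p = 0.019). Psmb10, the remaining immunoproteasome subunit, had no call, at 74.3 to 116 CPM in CP2, 64.9 to 97.4 CPM in CP1 and 62.1 to 101 CPM in P1. Set against the constitutive subunit that each replaces, per kilobase, Psmb9 was 0.134 to 0.214 times Psmb6 in CP2, 0.0265 to 0.0453 times in CP1 and 0.0611 to 0.170 times in P1. Psmb8 was 0.302 to 0.445 times Psmb5 in CP2, 0.0781 to 0.158 times in CP1 and 0.11 to 0.382 times in P1. Psmb10 was 1.88 to 2.63 times Psmb7 in CP2, 1.15 to 1.88 times in CP1 and 1.53 to 2.38 times in P1. CP1 lay below CP2 without overlap for Psmb9 and Psmb8, while for Psmb10 the ranges of CP2 and CP1 met at 1.88. The constitutive subunits were themselves not constant: Psmb6 was lower in CP2 than in CP1 (-0.49 ± 0.12, adjusted p = 0.0105), as was Psmb7 (-0.37 ± 0.09, adjusted p = 0.0107).

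Tapbpl, a peptide editor related to tapasin, was the processing gene that was lower in both CP lines. It had 27.6 to 34.7 CPM in CP2, 26.9 to 35.2 CPM in CP1 and 41.2 to 63.9 CPM in P1, and differed by -0.71 ± 0.16 in CP2 (adjusted p = 0.004) and -0.70 ± 0.17 in CP1 (adjusted p = 0.00869) versus P1. Without P1 replicates 1 and 2 these were -0.45 for CP2 (adjusted p = 0.057) and -0.44 for CP1 (adjusted p = 0.0834), with no call. Erap1, the trimming peptidase, had 74.8 to 87.9 CPM in CP2, 83.4 to 105 CPM in CP1 and 55.5 to 83.1 CPM in P1. Its rise in CP1 versus P1 was 0.42 ± 0.15 (adjusted p = 0.0396) and was lost without any 1 of 7 tumours, P1 replicate 3 among them (0.26, adjusted p = 0.0902). Tapasin itself, Tapbp, the most abundant of the group at 358 to 473 CPM in CP2, 384 to 516 CPM in CP1 and 381 to 441 CPM in P1, and the proteasome activator subunits Psme1 and Psme2 had no call. Psme1 was called lower without P1 replicate 1, at -0.35 in CP2 (adjusted p = 0.00684) and -0.36 in CP1 (adjusted p = 0.0098) versus P1. Psme2 was likewise called then, at -0.37 both in CP2 versus CP1 (adjusted p = 0.037) and in CP2 versus P1 (adjusted p = 0.0465), and 28.3% of its windows occur in Psme2b.

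Of the 11 class II genes, 8 were lower in CP2 and 7 in CP1 than in P1. All 11 summed to 167, 121, 236 and 209 CPM in CP2, 480, 341 and 102 CPM in CP1, and 988, 1384 and 964 CPM in P1. The P1 tumours lay above all others, and the lowest single tumour was CP1 replicate 3. Cd74 (ENSMUSG00000024610, chromosome 18: 60803848 to 60812652), the invariant chain, had 65.9, 44.6, 97.2 and 91.6 CPM in CP2, 219, 163 and 47.0 CPM in CP1, and 542, 746 and 542 CPM in P1. P1 overlapped with neither CP line, and the CP lines overlapped with each other. Cd74 was lower by -3.03 ± 0.45 in CP2 (adjusted p = 0.000311) and -2.09 ± 0.49 in CP1 (adjusted p = 0.00575) versus P1, and the second was -1.96 and not called without P1 replicates 1 and 2 (adjusted p = 0.0558). CP2 versus CP1 gave -0.93 ± 0.44 (adjusted p = 0.11), and -1.35 with a call without CP1 replicate 3 (adjusted p = 0.0068).

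**Figure D3:**
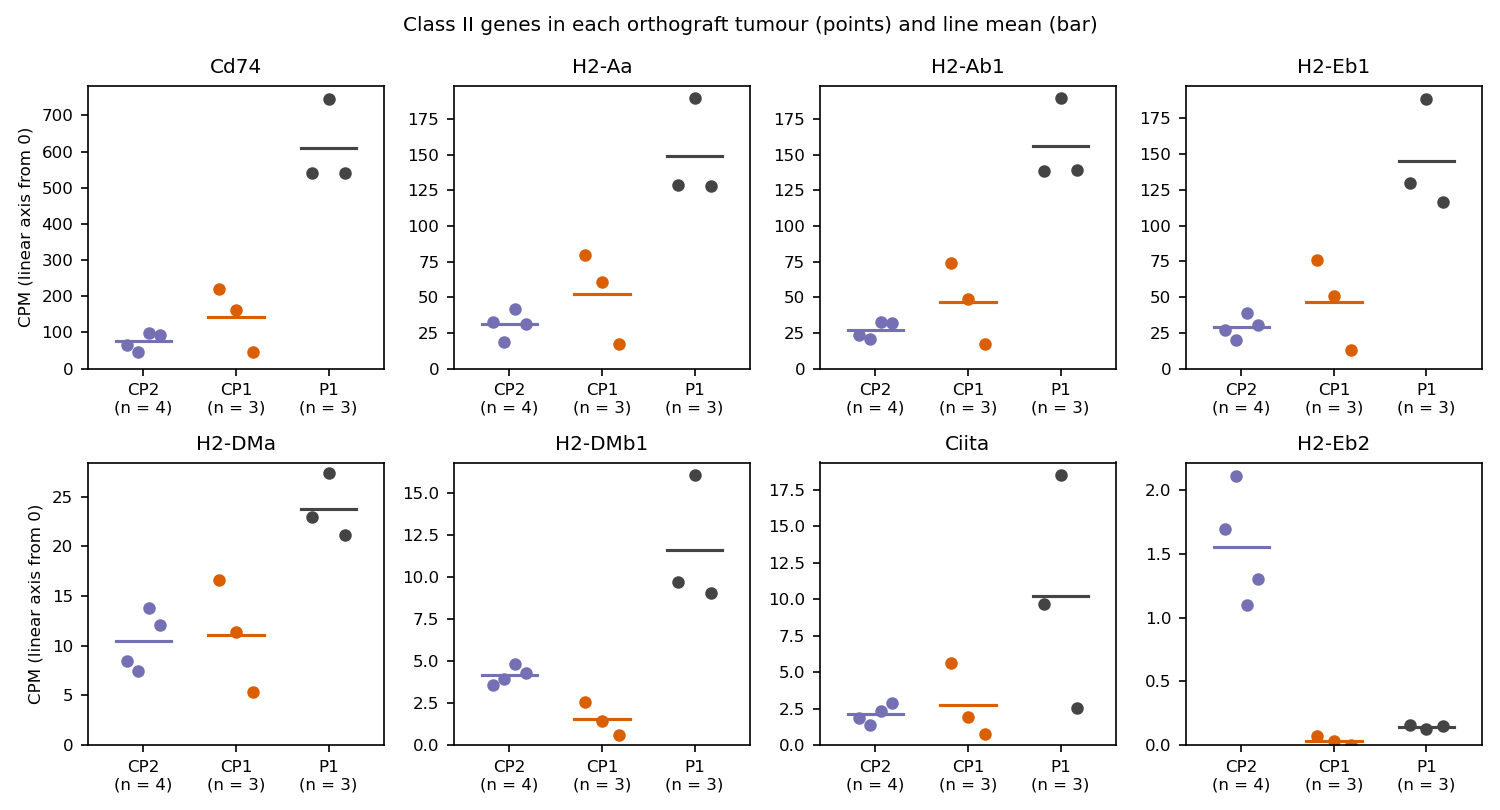
CPM of 8 class II genes on linear axes from 0, with a point for each tumour and a bar for the mean of each line (CP2 n = 4, CP1 n = 3, P1 n = 3). The P1 tumours lie highest for Cd74, H2-Aa, H2-Ab1, H2-Eb1, H2-DMa and H2-DMb1, CP1 replicate 3 is the lowest tumour for each of these except Cd74, and H2-Eb2 is highest in CP2.

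The chains that bind the peptide differed in the same direction as Cd74. H2-Aa (ENSMUSG00000036594, chromosome 17: 34282744 to 34287823), the alpha chain of the I-A molecule, had 32.5, 18.7, 41.5 and 31.4 CPM in CP2, 79.6, 60.6 and 16.9 CPM in CP1, and 129, 190 and 128 CPM in P1. P1 again lay above both CP lines. It was lower by -2.26 ± 0.44 in CP2 (adjusted p = 0.00163) and -1.51 ± 0.48 in CP1 (adjusted p = 0.026) versus P1. The I-A beta chain H2-Ab1 gave -2.51 ± 0.39 in CP2 (adjusted p = 0.000418) and -1.74 ± 0.42 in CP1 (adjusted p = 0.00729). The I-E beta chain H2-Eb1 gave -2.32 ± 0.47 in CP2 (adjusted p = 0.00204) and -1.64 ± 0.51 in CP1 (adjusted p = 0.0239). In CP1 versus P1, H2-Aa and H2-Eb1 were not called without P1 replicate 2 (-1.32, adjusted p = 0.074, and -1.43, adjusted p = 0.0694), nor H2-Eb1 without CP1 replicate 2 (-1.70, adjusted p = 0.0539). Without CP1 replicates 2 and 3, H2-Aa gave -0.90 (adjusted p = 0.135) and H2-Eb1 -0.93 (adjusted p = 0.101). Without P1 replicates 1 and 2, the values for CP1 were -1.32 for H2-Aa (adjusted p = 0.166), -1.61 for H2-Ab1 (adjusted p = 0.066) and -1.35 for H2-Eb1 (adjusted p = 0.18), none called. Without CP1 replicate 3, CP2 was lower than CP1 in H2-Aa (-1.18, adjusted p = 0.0115), H2-Ab1 (-1.17, adjusted p = 0.00523), H2-Eb1 (-1.13, adjusted p = 0.0129) and H2-DMb2 (-0.92, adjusted p = 0.0291). H2-Q2 was also called then, at -0.76 (adjusted p = 0.0313).

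H2-DM exchanges the Cd74 fragment for a peptide, and its beta chain is encoded by 2 neighbouring genes. H2-DMb1 (ENSMUSG00000079547, chromosome 17: 34153072 to 34160230) had 3.55, 3.93, 4.79 and 4.28 CPM in CP2, 2.58, 1.43 and 0.608 CPM in CP1, and 9.67, 16 and 9.02 CPM in P1. The 3 lines did not overlap, with CP1 lowest. The log2 fold change was 1.42 ± 0.41 in CP2 versus CP1 (adjusted p = 0.0197; 1.36 and not called without CP1 replicate 2, adjusted p = 0.0622), -2.90 ± 0.44 in CP1 versus P1 (adjusted p = 0.000487; -3.50 without CP1 replicate 1) and -1.48 ± 0.38 in CP2 versus P1 (adjusted p = 0.00774). Without P1 replicates 1 and 2 the last was -1.15 and not called (adjusted p = 0.111), and without CP1 replicates 2 and 3 the first was 0.68 and not called (adjusted p = 0.23). H2-DMb2 had 1.47 to 2.46 CPM in CP2, 0.810 to 4.49 CPM in CP1 and 4.47 to 5.68 CPM in P1. It was lower in CP2 than in P1 (-1.31 ± 0.45, adjusted p = 0.0295), a call lost without any 1 of 4 tumours (adjusted p = 0.0539 to 0.0764), and in CP1 versus P1 it gave -0.83 (adjusted p = 0.188), or -1.35 with a call without CP1 replicate 1 (adjusted p = 0.0481). Per kilobase, H2-DMb1 stood at 2.11, 2.77, 2.02 and 1.91 times H2-DMb2 in CP2, at 0.597, 0.481 and 0.779 times in CP1, and at 2.25, 2.94 and 1.96 times in P1. The order of the 2 copies was thus reversed in every CP1 tumour. Of the windows of H2-DMb1, 22.7% occur in H2-DMb2, so the counting could have split some reads.

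H2-DMa, the alpha chain, had 7.46 to 13.7 CPM in CP2, 5.31 to 16.6 CPM in CP1 and 21.1 to 27.3 CPM in P1, and was lower by -1.19 ± 0.34 in CP2 (adjusted p = 0.0129) and -1.10 ± 0.37 in CP1 (adjusted p = 0.0336) versus P1. The fall in CP1 lost its call without any 1 of 4 tumours (adjusted p = 0.0541 to 0.0847, with -0.76 without CP1 replicate 3), and that in CP2 without P1 replicates 1 and 2 (-1.05, adjusted p = 0.132). H2-Oa and H2-Ob, the chains of the H2-DM inhibitor H2-O, were below 2 CPM and not called. Without P1 replicate 3, H2-Ob was called lower in CP2 (-1.42, adjusted p = 0.0169) and in CP1 (-1.32, adjusted p = 0.0327) versus P1. H2-Oa was called without CP1 replicate 1, at -1.24 in CP2 (adjusted p = 0.0207) and -1.35 in CP1 (adjusted p = 0.0439) versus P1, and in CP2 without CP1 replicate 3 (-1.23, adjusted p = 0.0357).

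Ciita (ENSMUSG00000022504, chromosome 16: 10480059 to 10528418), the transactivator of class II genes, had 1.85, 1.37, 2.33 and 2.89 CPM in CP2, 5.65, 1.95 and 0.729 CPM in CP1, and 9.64, 18.5 and 2.52 CPM in P1. P1 replicate 3 lay within the range of both CP lines, although its class II sum did not. Ciita was lower in CP2 than in P1 (-2.27 ± 0.71, adjusted p = 0.0201). That call was lost without P1 replicate 2 (-1.54, adjusted p = 0.102) and without CP2 replicate 2 (-2.11, adjusted p = 0.0555), and the value was -0.28 without P1 replicates 1 and 2 (adjusted p = 0.816). CP1 versus P1 gave -1.88 ± 0.77 (adjusted p = 0.0715), a fall that was called without P1 replicate 3 (-2.35, adjusted p = 0.0214), without CP1 replicate 1 (-2.93, adjusted p = 0.0155) and by DESeq2 (adjusted p = 0.0244).

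H2-Eb2 (ENSMUSG00000067341, chromosome 17: 34325665 to 34341412), a second I-E beta gene next to H2-Eb1, ran against the other class II genes. It had 33, 43, 24 and 28 counts in CP2, 2, 1 and 0 counts in CP1, and 5, 4 and 4 counts in P1, or 1.55 ± 0.449, 0.0344 ± 0.0354 and 0.142 ± 0.0151 CPM. The CP2 tumours lay above all others. In summed counts scaled by library size, CP2 stood at 43.0 times CP1 (exact 95% interval 14.4 to 211, counting error only). CP2 was higher than P1 by 3.41 ± 0.43 (adjusted p = 9.69e-05) and higher than CP1 by 5.26 ± 0.53 (adjusted p = 5.67e-05; 6.09 without CP1 replicate 1). The call of a fall in CP1 versus P1 rests on 3 against 13 counts, a ratio of 0.253 (exact 95% interval 0.0463 to 0.921), and was lost without any 1 of 7 tumours (adjusted p = 0.0576 to 0.155), without a filter and by DESeq2 (adjusted p = 0.068 and 0.0953). No 50-base window of H2-Eb2 occurs in another gene.

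Genes of the cells that normally carry class II were set beside these values. Of all tested genes, 28.2% were higher and 28.4% lower in CP2 versus P1, and 22.4% were higher and 22.4% lower in CP1 versus P1. The 13 macrophage markers summed to 804 to 1171 CPM in CP2, 530 to 1091 CPM in CP1 and 1042 to 1434 CPM in P1. In CP2 versus P1, 1 was higher and 1, Cd14, lower. In CP1 versus P1, 1 was higher and 2, Cd14 and Aif1, lower. The complement genes C1qa, C1qb and C1qc, typical of tissue macrophages, had no call. Cd74 divided by the macrophage sum was 0.0555 to 0.101 in CP2, 0.0887 to 0.211 in CP1 and 0.378 to 0.716 in P1, so P1 stood apart here too. CP1 replicate 3 had the lowest macrophage sum as well as the lowest class II sum.

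Of 12 dendritic cell markers, 1 was higher and 5 lower in CP2, and 4 were lower in CP1, versus P1. Over all tested genes, 28.4% were lower in CP2 and 22.4% in CP1 versus P1. Itgax, which encodes CD11c, had 2.88 to 10.6 CPM in CP2, 3.16 to 10.5 CPM in CP1 and 20.5 to 28.4 CPM in P1. Their sums, 429 to 634 CPM in CP2, 435 to 529 CPM in CP1 and 1239 to 1341 CPM in P1, consist mostly of Cd24a, which epithelial cells also express. Markers that define subsets of these cells were low: Flt3, Xcr1 and Clec9a were below 3 CPM in every tumour. The 7 B cell markers summed to 1.54 to 2.97 CPM in CP2, 1.40 to 5.97 CPM in CP1 and 4.93 to 13.5 CPM in P1, with 4 lower in CP2 and 3 lower in CP1 versus P1. The part of these cells in the class II differences was not tested.

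**Figure D4:**
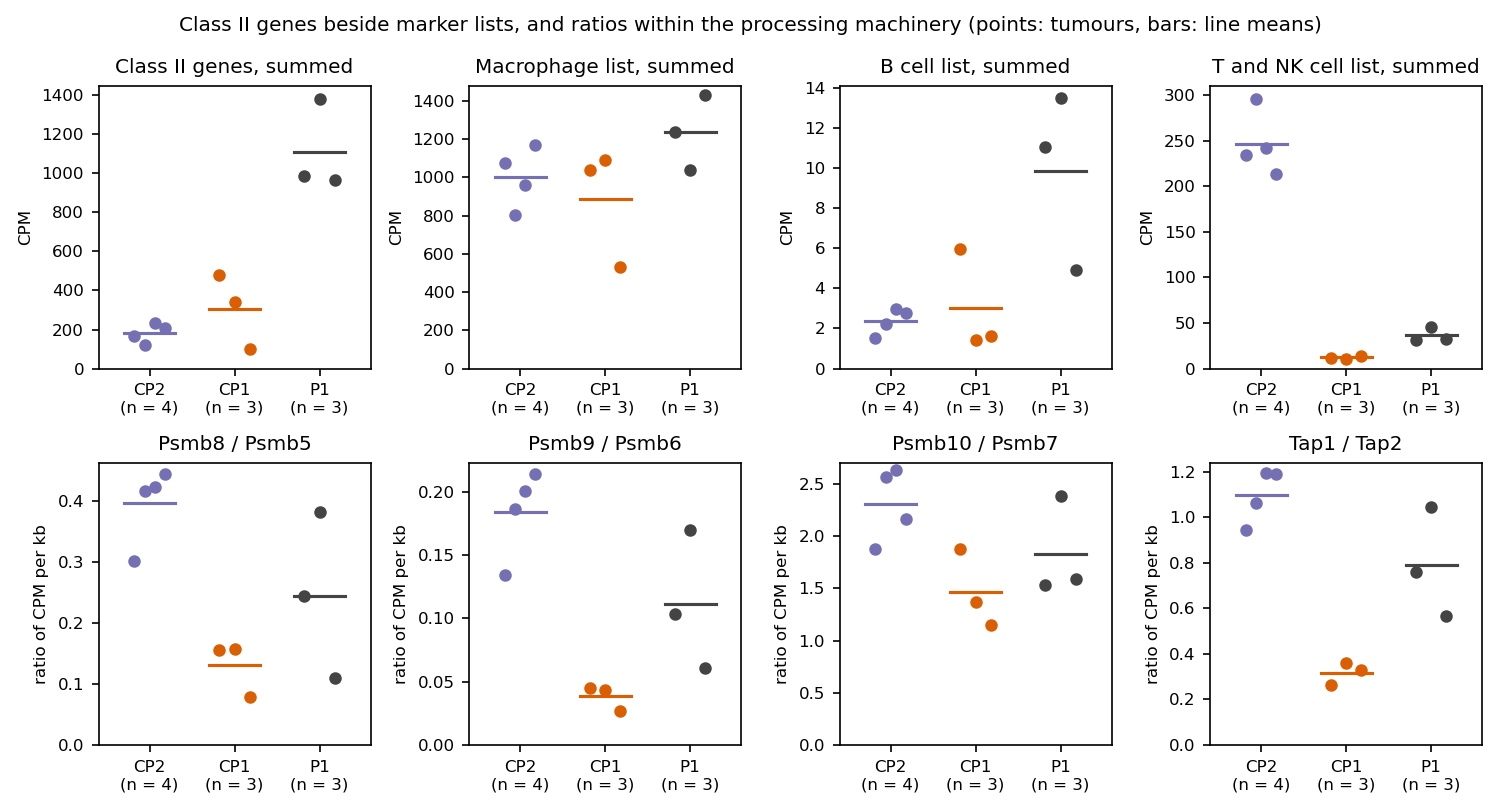
Upper row: summed CPM of the 11 class II genes and of the macrophage, B cell and T and NK cell marker lists. Lower row: ratios of CPM per kilobase between each immunoproteasome subunit and its constitutive counterpart and between Tap1 and Tap2. Points are tumours and bars are line means (CP2 n = 4, CP1 n = 3, P1 n = 3). Class II sums are 121 to 236 in CP2, 102 to 480 in CP1 and 964 to 1384 in P1, while the macrophage sums of the lines overlap, and the ratio of Tap1 to Tap2 is lowest in CP1.

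T and NK cell markers differed in another way. Their 12 genes summed to 213 to 296 CPM in CP2, 10.8 to 14.1 CPM in CP1 and 31.6 to 45.7 CPM in P1. Most of the CP2 sum was Prf1, perforin, at 159, 222, 169 and 153 CPM in CP2, 0.424, 1.56 and 1.5 CPM in CP1, and 7.76, 9.36 and 11.7 CPM in P1. Il2rb came next, at 38.4 to 50.1 CPM in CP2, 5.59 to 9.96 CPM in CP1 and 7.48 to 13.2 CPM in P1. Ncr1, an NK cell receptor, had 2.00 to 3.70 CPM in CP2, 0.0325 to 0.284 CPM in CP1 and 1.28 to 2.09 CPM in P1, while the T cell receptor subunit genes differed among themselves. Cd3e was at 0 in 3 of 4 CP2 tumours and was not tested. Cd3g had 2.21 to 3.83 CPM in CP2, 0 to 0.106 CPM in CP1 and 0.365 to 1.22 CPM in P1, and was called higher in CP2 than in CP1 (5.30 ± 0.65, adjusted p = 0.000184) and than in P1 (1.85 ± 0.48, adjusted p = 0.00784). Cd3d was below 1 CPM in every tumour and was called higher in CP2 than in CP1 (1.68 ± 0.51, adjusted p = 0.0237). Of the 11 tested, 9 were higher in CP2 than in CP1. In CP2 versus P1, 4 were higher (Prf1, Il2rb, Eomes and Cd3g) and 2, Cd8a and Gzma, lower. Ncr1 (0.97 ± 0.40, adjusted p = 0.0617), Nkg7 (adjusted p = 0.0718), Klrb1c (adjusted p = 0.148), Cd3d and Cd4 were not called there. In CP1 versus P1, 8 were lower. Over all tested genes these shares were 21.3%, 28.2%, 28.4% and 22.4%. Whether cells with these markers bear on the class I levels was not tested.

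The interferon-gamma axis was examined as the main known inducer of the group. Ifng itself had 0 to 0.228 CPM in CP2, 0 counts in each CP1 tumour and 0.0924 to 0.904 CPM in P1, too few for testing. Of the 15 genes tested, 6 were higher in CP2 than in CP1, namely Cxcl9, Cxcl10, Irf2, Irf8, Irf9 and Stat2, where the list had a median of 0.70. In CP1 versus P1, 2 were higher and 7 lower (median -0.62), and in CP2 versus P1, 3 were higher and 3 lower (median 0.05). Over all tested genes, 21.3% were higher in CP2 versus CP1. The shares higher and lower were 22.4% and 22.4% in CP1 versus P1, and 28.2% and 28.4% in CP2 versus P1. Cxcl9, a chemokine induced by interferon-gamma, had 9.97, 19.2, 39.5 and 28.8 CPM in CP2, 0.742, 0.942 and 0.203 CPM in CP1, and 28.1, 200 and 12.4 CPM in P1. CP1 lay below every other tumour (5.23 ± 1.12 in CP2 versus CP1, adjusted p = 0.00434, and -6.94 ± 1.2 in CP1 versus P1, adjusted p = 0.00101). P1 replicate 2 had the highest Cxcl9, and also the highest Nlrc5, Ciita, Tap1 and Psmb9 of the P1 tumours. Not every member had this order, as B2m had 2450 CPM in P1 replicate 1 and 1025 CPM in P1 replicate 2. Ifngr1, a receptor chain, was lower in CP2 (-1.06 ± 0.15, adjusted p = 0.00023) and in CP1 (-1.08 ± 0.17, adjusted p = 0.000487) than in P1. Jak2 was higher in CP2 (1.64 ± 0.21, adjusted p = 0.000112) and in CP1 (1.75 ± 0.22, adjusted p = 0.000139) than in P1. So was Socs1, by 1.21 ± 0.37 in CP2 (adjusted p = 0.0192) and 1.16 ± 0.39 in CP1 (adjusted p = 0.0344). Irf1, which acts directly on class I and Ciita promoters, had no call. Whether the interferon-gamma axis bears on the levels of the members was not tested.

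Of the 8 promoter-bound partners, Rfx5 had 20.9 to 25.1 CPM in CP2, 9.96 to 11.9 CPM in CP1 and 11.9 to 18.7 CPM in P1, and its log2 fold change was 1.04 ± 0.16 in CP2 versus CP1 (adjusted p = 0.000678), -0.51 ± 0.17 in CP1 versus P1 (adjusted p = 0.0311) and 0.53 ± 0.16 in CP2 versus P1 (adjusted p = 0.0152). The directions were those of H2-K1 and H2-D1, and whether Rfx5 or the other partners bear on the members was not tested. Rfxank was higher in CP2 than in CP1 (0.91 ± 0.12, adjusted p = 0.000247) and P1 (0.64 ± 0.12, adjusted p = 0.00105). The NF-Y subunit genes Nfya, Nfyb and Nfyc and Creb1 had no call. The other 2 partners had other directions. Atf1, a relative of Creb1, was lower in CP2 than in CP1 (-0.90 ± 0.09, adjusted p = 4.23e-05) and higher in CP1 than in P1 (0.85 ± 0.09, adjusted p = 5.77e-05). Rfxap, an RFX subunit, was lower in CP2 (-0.37 ± 0.11, adjusted p = 0.0143) and in CP1 (-0.39 ± 0.11, adjusted p = 0.0191) than in P1. Among 11 genes of class I loading and folding in the endoplasmic reticulum, such as Calr and Canx, 1 was higher and 2 lower in CP2 versus CP1, 6 were higher in CP1 versus P1 and 5 in CP2 versus P1. Over all tested genes these shares were 21.3%, 21.9%, 22.4% and 28.2%.

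Across all 32851 RefSeq promoter windows, searched on both strands, the pair of TGANGC and ATTGG was found in 224 windows, or 0.682%. This share and those below count all windows of a gene, while each member was searched only in the window of its start farthest upstream. Among members with a window the pair was found in 5 of 8 class II genes (H2-DMb1, H2-DMb2, H2-Eb1, H2-Eb2 and H2-Ob). It was also found in 3 of 23 class I genes (H2-D1, H2-K1 and H2-M3) and in 0 of 8 processing genes. These letters were chosen after the members' promoters had been read, so the counts describe them and do not test them. The 3 class I genes with the pair were all higher in CP2 than in CP1, as were 6 of the 10 tested class I genes with a window but no pair, H2-Q7 and H2-Q4 among them. Of the 3, H2-D1 and H2-K1, but not H2-M3, were called lower in CP1 than in P1. Of the class II genes with it, H2-DMb1, H2-DMb2 and H2-Eb1 were lower, H2-Eb2 was higher and H2-Ob was not called in CP2 versus P1, where 2 of the 3 class II genes with a window but no pair were lower. Enhancer A was found in 10 windows, or 0.0304%, among them H2-K1, H2-D1 and H2-Q6. CCAAT was found in 37.4% of all windows, in 20 of 23 class I, 7 of 8 class II and 3 of 8 processing windows, and it overlaps the Y box, whose letters are the reverse complement. The interferon-stimulated response element core, a GAAA followed after any 2 bases by another, found in 3.44% of windows, lay in those of B2m, H2-T22, H2-T23, Erap1 and Psme1. A match is a run of letters and not a measured binding site. Nor does a missing match show that an X2 box or an interferon element is absent. H2-Aa and H2-Q7 have TGACGT before ATTGG. The printed stretches of H2-K1, H2-D1, H2-Q6 and H2-Q7 hold tttcacttc, which is close to the reverse complement of the interferon core but was not counted.

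**Figure D5:**
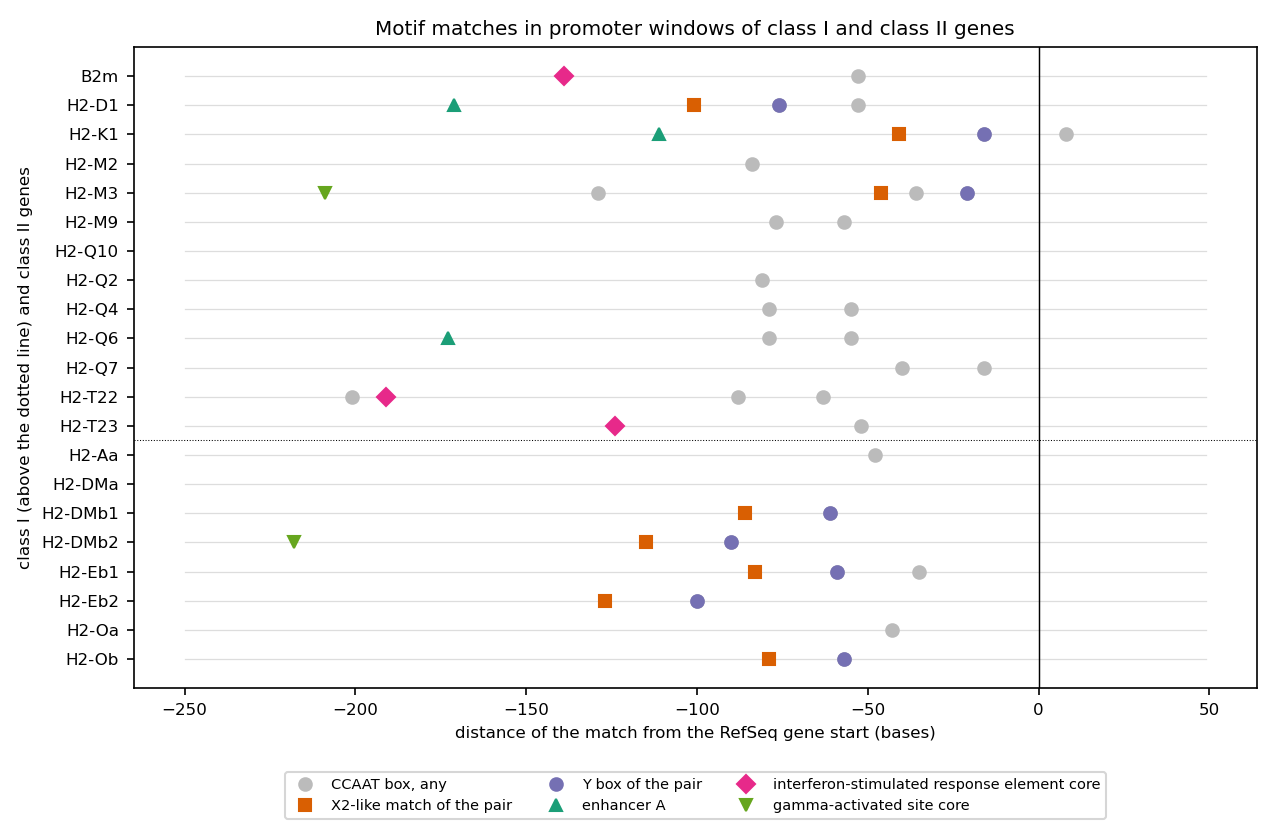
Motif matches in RefSeq promoter windows of the tested class I (above the dotted line) and class II genes that have a window, by distance in bases from the gene start at 0. Squares and dark circles mark the TGANGC and ATTGG of the pair, grey circles other CCAAT boxes, upward triangles enhancer A, diamonds the interferon-stimulated response element core and downward triangles the gamma-activated site core. The pair is seen in 3 class I and 5 class II rows.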

How the data were processed

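RNA was sequenced from 10 orthograft tumours, and the authors deposited raw counts, 1 whole number for every Ensembl gene and tumour. HTSeq 0.6.0, TopHat2 2.1.0 and Bowtie2 2.2.6.0 are among the tools listed, on GRCm38.p3, per the submitters' processing notes. For strand and counting parameters the sources used here give nothing: overlapping genes, such as Psmb9 and Tap1 at their starts, and near-identical copies are uncertain. Of 47069 IDs, 46574 matched GENCODE M21 (GRCm38), which gave symbols and coordinates.

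Counts were tested with edgeR 4.0.16 (R 4.3.3, limma 3.58.1): filterByExpr with a minimum count of 10 and a minimum total of 15, TMM scaling, and 1 quasi-likelihood fit of all tumours with a mean per line. Adjusted p-values are Benjamini-Hochberg over 17644 genes in this fit, and over its own genes in each alternative. CPM use TMM-scaled library sizes. The fit was tested on simulated data. Levels per kilobase use the summed length of all annotated exons of a gene, the same in every tumour. This length can exceed that of the transcripts expressed, so the size of a ratio between genes depends on the annotation. All members may be named, and other genes come from lists of related genes and cell type markers. The members and lists were chosen with earlier results of these data known. Alternatives were other scalings and filters, DESeq2 1.42.0, fits of 2 lines, and leaving out tumours. Replicate numbers follow accession order. Part of the genotypes is not reported here.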

Additional observations from a re-analysis of the deposited data

Results flagged for a closer look

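H2-K1, H2-D1, H2-Q4 and H2-Eb2 were called higher in CP2 and lower in CP1 when each was set against P1. The difference itself, CP2 versus CP1, was tested and called in each, with a log2 fold change of 2.02 for H2-K1, 1.73 for H2-D1, 2.82 for H2-Q4 and 5.26 for H2-Eb2. The CP1 part of H2-Eb2 rests on few counts.

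Within CP2, the only line with 4 tumours, 1 tumour stood apart from the other 3 by Dixon's test in 4 of the 38 tested members. CP2 replicate 1 was the lowest for Psmb8 (67.6 CPM) and Tap1 (60.5 CPM). CP2 replicate 3 was the highest for H2-Ob (0.684 CPM) and Psme1 (128 CPM). Chance alone gives about 1 such gene in 20. CP2 replicate 1 is the tumour whose title names CP1, but its 159 CPM of Prf1 and 33 counts of H2-Eb2 lay within the range of the other CP2 tumours, above the 0.424 to 1.56 CPM and 0 to 2 counts of the CP1 tumours.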

How the results depend on the processing

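Of the 52 called differences of members, 0 changed sign under any alternative. Of the 62 that were not called, 24 changed sign in at least 1 alternative, 50 values in all, none of them called. The 3 largest of these values came without P1 replicates 1 and 2, where H2-Ob was at 1.06 in CP1 (against -0.87) and 0.97 in CP2 (against -0.96), and B2m at 0.75 in CP2 (against -0.06), versus P1. Ciita was then at 0.11 in CP1 versus P1 (against -1.88). Of the members called, 5 of 17 in CP1 versus P1, 10 of 19 in CP2 versus P1 and 9 of 16 in CP2 versus CP1 kept their call in every alternative. The members called lower in CP1 versus P1 numbered 14, with 10 to 18 when 1 tumour was left out, 7 without CP1 replicates 2 and 3 and 7 without P1 replicates 1 and 2. Those called higher numbered 3, with 1 without CP1 replicates 2 and 3. In CP2 versus P1 the lower calls numbered 10, with 8 to 12 when 1 tumour was left out and 5 without P1 replicates 1 and 2, and the 9 higher calls ranged from 8 to 10 when 1 tumour was left out and were 11 without P1 replicates 1 and 2. In CP2 versus CP1 the 16 higher calls became 13 to 17, and 9 without CP1 replicates 2 and 3. The count of lower calls there, 0, became 0 to 6 when 1 tumour was left out, 1 with DESeq2, 1 with the 2 lines fitted alone, 1 without P1 replicates 1 and 2 and 5 without CP1 replicates 2 and 3. Some calls lost without 2 tumours of a line are not given above. Without CP1 replicates 2 and 3 they were, in CP1 versus P1, H2-M9 (2.58), H2-DMa (-0.51), H2-Eb2 (-0.95), Erap1 (0.56) and Tapbpl (-0.51). In CP2 versus CP1 they were Psmb8 (0.84), H2-T23 (0.68), H2-T24 (0.65) and H2-Q10 (0.63). Without P1 replicates 1 and 2 they were H2-M9 (2.63), H2-DMa (-0.95) and H2-Eb2 (-1.92) in CP1, and H2-M9 (1.88) and H2-DMb2 (-1.28) in CP2, versus P1. Fits without tumours hold fewer samples, and the cause was not tested otherwise. With the 2 lines fitted alone, 10 members were lower in CP1 versus P1. H2-Aa (adjusted p = 0.0594), H2-Eb1 (0.0646), H2-DMa (0.0635) and Erap1 (0.105) were not called in that fit. Without a filter on low counts, 11 were lower, and H2-Aa (adjusted p = 0.0805) and H2-Eb1 (0.0786) were not called. Scaling by total counts moved the median of all genes by 0.15 in CP2 versus P1. No paired analysis was possible because the replicate numbers follow accession order and the labels give no pairing. Libraries are shallowest in CP2, where 3 counts correspond to 0.145 to 0.160 CPM, so members near that level, such as H2-M2 and H2-M9, are measured with little precision.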

Other observations

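H2-Ea-ps, the I-E alpha gene, was counted in every tumour. The annotation lists it as a polymorphic pseudogene, and C57BL/6J mice, the source of the reference genome, are known not to transcribe it. It had 329, 161, 464 and 369 counts in CP2, 1274, 1135 and 246 in CP1, and 2400, 3320 and 1518 in P1. Divided by the counts of H2-Eb1 it gave 0.395 to 0.621 in CP2, 0.591 to 0.769 in CP1 and 0.477 to 0.568 in P1.

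Ligands of the activating NK cell receptor NKG2D, which are distant relatives of class I, were higher in both CP lines: 3 of 5 genes in CP2 and 4 of 5 in CP1 versus P1. Over all tested genes, 28.2% were higher in CP2 and 22.4% in CP1. Ulbp1 had 18.9 to 22.1 CPM in CP2, 34.9 to 37.8 CPM in CP1 and 2.45 to 6.83 CPM in P1, a log2 fold change of 2.02 ± 0.28 in CP2 (edgeR adjusted p = 0.000193) and 2.82 ± 0.30 in CP1 (adjusted p = 4.91e-05). Raet1d rose by 3.50 ± 0.32 in CP2 (adjusted p = 1.28e-05) and 3.88 ± 0.33 in CP1 (adjusted p = 1.3e-05). Cd274, which encodes the checkpoint ligand PD-L1, had 17.5 to 26.3 CPM in CP2, 5.13 to 7.99 CPM in CP1 and 5.37 to 12.4 CPM in P1. It was higher in CP2 than in CP1 (1.72 ± 0.29, adjusted p = 0.00114) and than in P1 (1.38 ± 0.28, adjusted p = 0.00228). Cd40, a co-stimulatory receptor, had 1.75 to 4.38 CPM in CP2, 17.9 to 41.7 CPM in CP1 and 4.34 to 4.78 CPM in P1. It was higher in CP1 than in P1 (2.78 ± 0.37, adjusted p = 0.000198) and had no call in CP2 versus P1 (-0.75, adjusted p = 0.0823). Of the 8 co-stimulation and checkpoint genes listed, 2 were higher and 3 lower in CP2 versus P1. In CP1 versus P1, 1 was higher and 3 lower. The lower genes were Icosl, Cd276 and Vtcn1 in both. Over all tested genes, 28.4% were lower in CP2 and 22.4% in CP1.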
